A study of Zea mays with 6 samples.

Results

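Of 44303 maize genes measured by mRNA sequencing, 68 (0.153%) were low in replicates 1 and 3 of the apl mutant and stood 2.5 times or more higher in all other libraries, apl replicate 2 included. The rule compared TPM + 1 (TPM, a relative transcript abundance, with 1 added) gene by gene. The lowest value among the 3 Z58 libraries and apl replicate 2 had to be at least 2.5 times the higher value of apl replicates 1 and 3. Genes with a mean of 1000 TPM or more in Z58 were set aside, which removed 4 genes, and so was a block of 250 consecutive places in identifier order, which removed 0. The genes were thus selected on the TPM of all 6 libraries, so their low level in apl replicates 1 and 3 and their high level elsewhere are described without a test.

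The libraries came from second leaves of maize (Zea mays) seedlings sampled 10 days after germination in a greenhouse, 3 with the genotype label apl and 3 with the label Zheng58 (Z58 in the table). Both groups share the Zheng58 background, an inbred line. The labels give no treatment, do not say which locus apl stands for or how the mutant was made, and do not say if replicates are separate plants or pools. The p-values below cover only the variation from library to library, part of which may be technical. The number of reads per library is unknown, because TPM carries no depth.

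The second leaf of a maize seedling is a young photosynthetic organ that exports sugar, and its mRNA pool is a mixture from mesophyll, bundle sheath, vascular and epidermal cells. TPM gives a transcript's share of that pool after correction for transcript length. A lower TPM in a whole leaf can come from fewer cells of a type or from less RNA per cell, which cannot be told apart here. The deposited identifiers were not paired with gene names, and 0 of them matched the maize name table used (49888 genes). What the 68 genes encode, and whether they share a pathway or a cell type, is therefore not reported here. Leaf markers could not be looked up either. Genes are described below by rank of mean TPM in Z58, from 1 (highest) to 68, and 2 are named by identifier.

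One mutant library stood apart from its group before any gene was chosen. Across the 20411 genes that averaged 1 TPM or more, apl replicate 2 correlated at 0.885 and 0.900 with apl replicates 1 and 3, and at 0.950 to 0.955 with the Z58 libraries (Pearson r of log2(TPM + 1), across genes). Replicates 1 and 3 of apl correlated at 0.952 with each other, and the Z58 libraries at 0.979 to 0.982. The 68 genes are those that passed the chosen limits on the low side of that split. Whether apl replicate 2 or the other pair better stands for the mutant was not tested.

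The 68 genes ranged from 2.99 to 637 TPM in mean Z58 level, with a median of 29.3 TPM. Their TPM summed to 1725 in apl replicate 1, 1556 in apl replicate 3 and 6370 in apl replicate 2, against 6455, 7293 and 6206 in Z58 replicates 1, 2 and 3. Relative to the Z58 mean, these sums were 25.9%, 23.4% and 95.8% in apl replicates 1, 3 and 2. As a share of all listed TPM, the set took 0.181% and 0.167% in apl replicates 1 and 3 and 0.673% in apl replicate 2, against 0.647% to 0.765% in Z58. The median gene kept 19.2% of its Z58 mean in apl replicate 1, 18.7% in apl replicate 3 and 94.0% in apl replicate 2. In log2(TPM + 1), the mean of apl replicates 1 and 3 minus the Z58 mean ran from -4.47 to -1.54, with a median of -2.05, where the median over all tested genes was 0.08. The difference was 3 units or more in 9 genes, from 2 to under 3 in 29 and under 2 in 30.

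**Figure D1:**
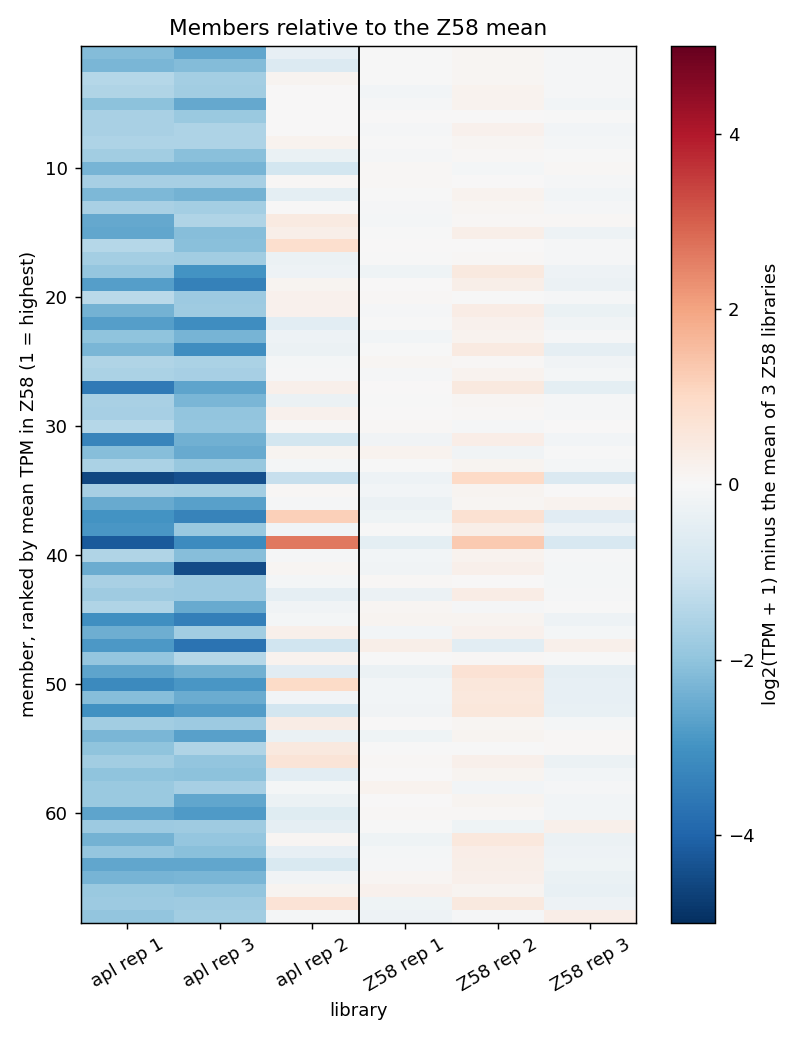
Each row is 1 of the 68 genes, ordered by mean TPM in Z58, and each column is a library; colour gives log2(TPM + 1) minus the mean of the 3 Z58 libraries. The columns of apl replicates 1 and 3 are blue in every row, which the rule fixed, while the column of apl replicate 2 varies around 0, from -1.15 to 2.62.

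The largest drop belonged to Zm00001eb344000, ranked 34. It had 0.17 and 0.29 TPM in apl replicates 1 and 3 and 11.2 TPM in apl replicate 2, against 21.6, 52.6 and 15.5 TPM in Z58. All 3 apl values lay under all 3 Z58 values, and apl replicate 2 alone among the apl libraries held a level above 1 TPM. It kept 37.6% of the Z58 mean there, the smallest share of the 68 genes in that library. Its group means were 3.90 ± 6.36 TPM in apl and 29.9 ± 19.9 TPM in Z58 (SD, n = 3 each), and limma gave a log2 difference of -3.36 ± 0.98 (SE, adjusted p = 0.171).

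The most abundant member was Zm00001eb328730. It had 142 and 106 TPM in apl replicates 1 and 3 and 476 TPM in apl replicate 2, against 627, 673 and 610 TPM in Z58. Here too the groups did not overlap, with apl replicate 2 at 74.7% of the Z58 mean. The means were 241 ± 204 TPM in apl and 637 ± 32.2 TPM in Z58 (SD, n = 3 each), and limma gave a log2 difference of -1.72 ± 0.54 (SE, adjusted p = 0.188). The SD within apl came from the gap between apl replicate 2 and the lower pair.

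A block of 20 genes had a Z58 mean of 100 TPM or more. In these the Z58 libraries lay close together, with a median SD of 0.09 log2 units, against 0.24 in the 32 genes from 10 to under 100 TPM and 0.25 in the 16 genes under 10 TPM. The 20 genes kept a median of 29.8% and 25.1% of the Z58 level in apl replicates 1 and 3. The genes from 10 to under 100 TPM kept 16.4% and 15.7%, and those under 10 TPM kept 12.5% and 9.34%. Lower genes need a deeper drop to pass a limit set on TPM + 1, so this order is partly built into the rule.

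Several abundant genes had apl replicate 2 almost exactly at the Z58 level. The gene ranked 6 had 114 and 94.6 TPM in apl replicates 1 and 3 and 354 TPM in apl replicate 2, against 352, 350 and 341 TPM in Z58. The gene ranked 11 had 70.6 and 70.9 TPM in apl replicates 1 and 3 and 233 TPM in apl replicate 2, against 235, 226 and 213 TPM in Z58. The gene ranked 13 had 64.2 and 60.7 TPM in apl replicates 1 and 3 and 204 TPM in apl replicate 2, against 193, 213 and 193 TPM in Z58. In each of these 3 genes the low pair of apl libraries and the high 4 libraries formed 2 tight levels. The empty gap between the levels was fixed by the rule and is present in every gene of the set.

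Other abundant genes held an intermediate level in apl replicate 2. The gene ranked 10 had 49.6 and 48.9 TPM in apl replicates 1 and 3 and 130 TPM in apl replicate 2, against 257, 237 and 257 TPM in Z58. The gene ranked 2 had 125 and 135 TPM in apl replicates 1 and 3 and 375 TPM in apl replicate 2, against 594, 644 and 589 TPM in Z58. The gene ranked 12 had 45.4 and 42.5 TPM in apl replicates 1 and 3 and 157 TPM in apl replicate 2, against 220, 248 and 199 TPM in Z58. For these, apl replicate 2 lay under every Z58 library, at 52.0%, 61.6% and 70.8% of the Z58 mean. They meet the rule, but their level in apl replicate 2 is not that of Z58.

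**Figure D2:**
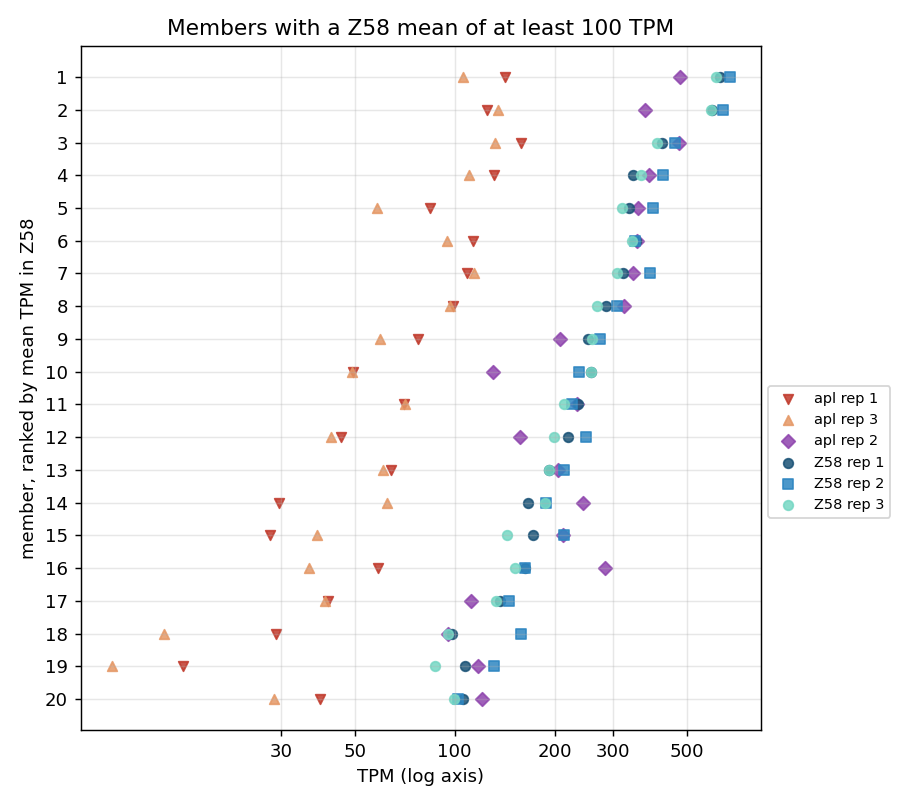
TPM on a log axis for the 20 genes with a Z58 mean of at least 100 TPM, 1 row per gene and 1 marker per library. The triangles of apl replicates 1 and 3 stand to the left in every row, and the diamond of apl replicate 2 lies under all Z58 markers in 6 rows, among them in 8 and above them in 6.

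Over all 68 genes, apl replicate 2 lay above the highest Z58 library in 16, within the Z58 range in 28 and under the lowest Z58 library in 24. Among all tested genes it lay above in 28.2%, within in 32.4% and under in 39.4%. The median difference of apl replicate 2 from the Z58 mean was -0.08 log2 units over the 68 genes and -0.05 over all tested genes. The rule held apl replicate 2 from below only, so a value above Z58 was free to occur, while low values were removed. Its closeness to Z58 in this set is therefore partly built into the rule. In the 190 genes chosen without apl replicate 2, it lay between Z58 and the other mutant libraries in 100. It lay at or under the higher of those libraries in 46. On TPM + 1, apl replicate 2 exceeded the highest Z58 library by 1.5 times or more in 2 genes (2.94%). It fell short of the lowest by as much in 3 (4.41%). Among all tested genes these shares were 3.35% and 6.10%.

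The 3 genes in which apl replicate 2 exceeded the Z58 mean most, in log2(TPM + 1), had very low levels in the other mutant libraries. The gene ranked 39 had 0.08 and 1.20 TPM in apl replicates 1 and 3 and 120 TPM in apl replicate 2, against 13.0, 47.8 and 10.2 TPM in Z58. The gene ranked 37 had 1.94 and 1.31 TPM in apl replicates 1 and 3 and 52.5 TPM in apl replicate 2, against 19.0, 39.1 and 14.9 TPM in Z58. The gene ranked 50 had 0.31 and 0.58 TPM in apl replicates 1 and 3 and 22.3 TPM in apl replicate 2, against 9.75, 16.6 and 8.04 TPM in Z58. In all 3, apl replicate 2 was the highest of the 6 libraries and Z58 replicate 2 came next. The next by this measure, the gene ranked 16, was more abundant, with 58.8 and 36.4 TPM in apl replicates 1 and 3 and 283 TPM in apl replicate 2, against 163, 163 and 152 TPM in Z58.

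The Z58 libraries also differed among themselves in this set. Z58 replicate 2 was the highest of the 3 in 50 of the 68 genes (73.5%), where it was the highest in 36.9% of all tested genes. Under median-of-ratios rescaling and quantile normalization, both tried after the data were seen, the number was 52 and 51 of 68. In 4 genes (5.88%), those ranked 34, 37, 39 and 49, Z58 replicate 2 was at least 2-fold above the other Z58 libraries on TPM + 1, as it was in 0.456% of all tested genes. The gene ranked 49 had 0.90 and 1.23 TPM in apl replicates 1 and 3 and 6.96 TPM in apl replicate 2, against 8.73, 18.7 and 7.64 TPM in Z58. The rule asks only that the lowest Z58 library be high, so it did not set which Z58 library was highest.

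Replicates 1 and 3 of apl were alike but not equal. Their TPM + 1 differed by under 1.5-fold in 52 of the 68 genes. Replicate 3 was lower than replicate 1 in 44 genes (64.7%, against 48.5% of all tested genes), higher in 23 and equal in 1. The median difference was -0.10 log2 units, with quartiles of -0.36 and 0.12. Over all tested genes the median was 0.01, with quartiles of -0.22 and 0.24. The gene ranked 27 had 2.78 TPM in apl replicate 1 and 5.91 TPM in apl replicate 3, with 51.2 TPM in apl replicate 2, against 42.5, 60.4 and 29.7 TPM in Z58. The gene ranked 19 had 15.2 TPM in apl replicate 1 and 9.28 TPM in apl replicate 3, with 117 TPM in apl replicate 2, against 108, 131 and 87.5 TPM in Z58. These genes show opposite orders of the pair, and in both the pair lies under the remaining libraries, which the rule fixed. A level listed at 0 occurred in 2 genes in apl replicate 1 and in 3 in apl replicate 3, and in 0 of the 68 genes elsewhere. The gene ranked 41 was listed at 0 in apl replicate 3 and had 3.05 TPM in apl replicate 1 and 23.3 TPM in apl replicate 2, against 18.7, 26.1 and 20.3 TPM in Z58. A 0 in this kind of table can be a failed estimate as well as an absent transcript.

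Genes near the limit differed little on its opposite sides. The gene nearest to it on the inside, ranked 20, had 39.3 and 28.6 TPM in apl replicates 1 and 3 and 120 TPM in apl replicate 2, against 106, 102 and 99.8 TPM in Z58, a ratio of 2.502. The nearest gene on the outside had 16.8 and 15.8 TPM in apl replicates 1 and 3 and 69.7 TPM in apl replicate 2, against 44.3, 54.8 and 43.3 TPM in Z58, a ratio of 2.493. The median ratio among the 68 genes was 2.95 and the highest was 9.49, and 11 genes reached a ratio of 4. Most of the set therefore lies close to the limit, and its size depends on it: a limit of 2 gives 188 genes and a limit of 4 gives 11.

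To look at a library that had no part in choosing the genes, the rule was applied without each library in turn. Chosen without apl replicate 1, 154 genes were found, and apl replicate 1 lay under the remaining high libraries in 146 of them (94.8%), against 29.4% of all tested genes. Chosen without apl replicate 3, 134 genes were found, and apl replicate 3 lay under the high libraries in 115 (85.8%), against 27.8% of all tested genes. A level under the high libraries thus recurred in the left-out library of this pair, but the full fold limit was met less often. Past that limit were 68 of the 154 genes (44.2%) for apl replicate 1 and 68 of the 134 (50.7%) for apl replicate 3. Of all tested genes, 0.686% and 0.779% were past it. For apl replicate 2, left out in the same way, 190 genes were found. It lay above apl replicates 1 and 3 in 144 of them (75.8%), against 33.6% of all tested genes. It was past the limit on the high side in 68 (35.8%), against 1.23% of all tested genes. Left-out Z58 libraries lay above apl replicates 1 and 3 in 97.4% to 98.6% of the genes chosen without them, against 34.4% to 36.5% of all tested genes. They were past the limit in 79.1% to 95.8% of the chosen genes, against 1.38% to 1.89% of all tested genes. In each case the genes past the limit are the 68 members themselves, because passing it completes the rule. Their number was thus set by the selection, and only the length of each list differs. These shares describe genes, which are not independent replicates.

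**Figure D3:**
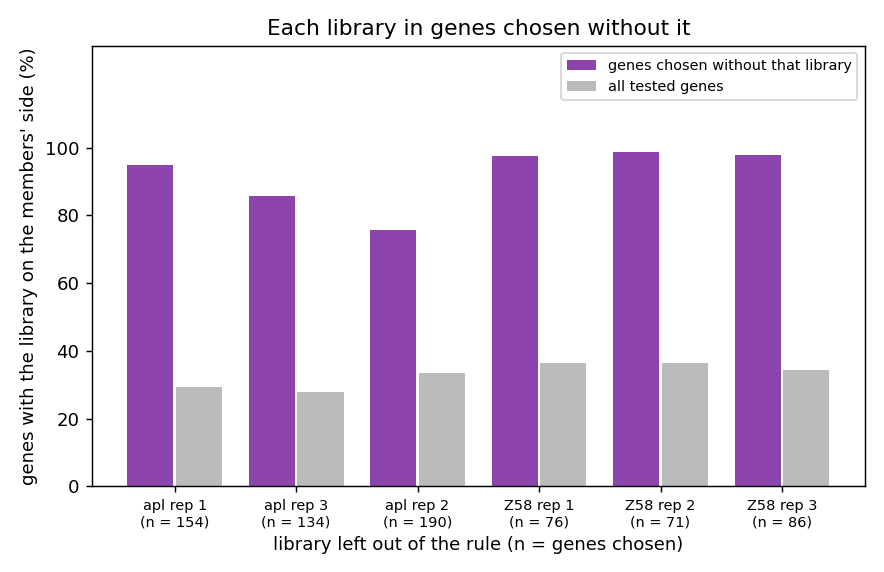
For each library, the purple bar gives the percent of genes chosen without it in which it lay on the members' side by any amount. The fold limit is not applied to the library left out. The grey bar gives the percent of all tested genes in which the library lay on that side. The purple bars run from 75.8% for apl replicate 2 to 98.6% for Z58 replicate 2, and the grey bars from 27.8% to 36.5%.

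The place of apl replicate 2 varied widely once it had no part in the choice. Without it, 190 genes were at least 2.5 times lower in apl replicates 1 and 3 than in all 3 Z58 libraries. In these, apl replicate 2 lay above the Z58 range in 16, within it in 28, between Z58 and the other mutant libraries in 100, and at or under the higher of the other mutant libraries in 46. On a scale with the Z58 mean at 0 and the mean of apl replicates 1 and 3 at 1, its median place was 0.405, with quartiles of 0.132 and 0.954. It was nearer to Z58 in 107 of the 190 genes. By the fold limit, 68 genes (35.8%) had apl replicate 2 high, 63 had it at least 2.5 times under every Z58 library as well, and 59 met neither. The 68 genes are therefore a part of a broad spread of values in apl replicate 2, and they overlap the rest on this scale. The highest place of a member was 0.404, and the lowest place of a gene outside the set was 0.168.

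Where the drop in apl replicates 1 and 3 was deepest, apl replicate 2 was high in some genes and low in others. Of the 22 genes with a drop of 3 log2 units or more, 9 had apl replicate 2 past the limit on the high side, 13 had it past the limit on the low side, and 0 met neither. Of the 96 genes with a drop of 2 units or more these numbers were 38, 46 and 12. A gene in which every Z58 library is at least 6.25 times above apl replicates 1 and 3 must meet at least 1 of the limits and could meet both. There were 17 such genes, 2 with apl replicate 2 on the high side and 15 with it on the low side, and 0 met both.

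**Figure D4:**
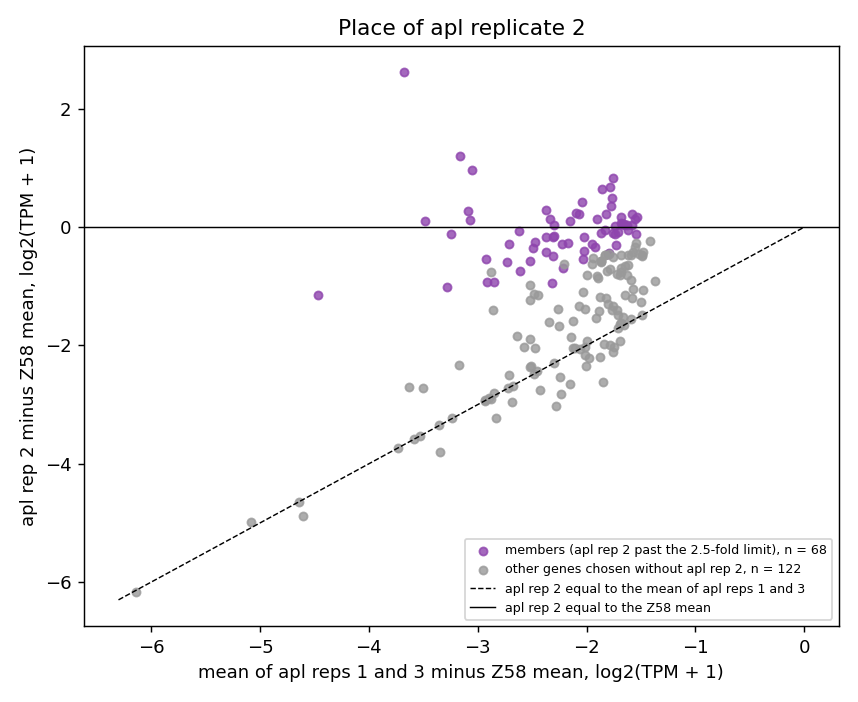
Each point is 1 of the 190 genes chosen without apl replicate 2; the horizontal axis gives the mean of apl replicates 1 and 3 minus the Z58 mean and the vertical axis apl replicate 2 minus the Z58 mean, both in log2(TPM + 1). The 68 purple points lie around the line of the Z58 mean and the 122 grey points range from just under it to the dashed line, where apl replicate 2 equals the mean of the other mutant libraries, and beyond. In 16 of the 190 genes apl replicate 2 was lower than both of them.

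The rule turned round, for genes raised in apl replicates 1 and 3 alone, found 413 genes. Without apl replicate 2 in the choice, 538 genes were raised by 2.5 times or more, so apl replicate 2 stayed on the Z58 side past the limit in 76.8% of the raised genes, against 35.8% of the lowered ones. After median-of-ratios rescaling these shares were 74.1% and 40.7%, and after quantile normalization 73.4% and 38.9%. The difference between the directions was not tested, because genes are not replicates and apl replicate 2 is 1 library.

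In the comparison of all 3 apl with all 3 Z58 libraries, 0 of the 68 genes were called lower (limma, Benjamini-Hochberg adjusted p under 0.05), where 0.745% of all tested genes were. Their adjusted p ran from 0.0902 to 0.611, and 36 had an unadjusted p under 0.05, as did 10.2% of all tested genes in that direction. The fitted log2 change had a median of -1.40 over the 68 genes and 0.04 over all tested genes. Array weights, which give a deviating library less weight, called 67 of the 68, where 12.0% of all tested genes were called lower. Without apl replicate 2 all 68 were called lower, with adjusted p from 0.00046 to 0.0121, where 14.6% of all tested genes were; this fit rests on 2 apl libraries. The groups did not overlap in 24 of the 68 genes, with all apl values under all Z58 values, as in 14.6% of all tested genes. The rule used this contrast, so none of these counts supports it.

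The 68 genes were spread along the identifier order. Cut into 178 windows of 250 identifiers, the table had at least 1 member in 57 windows and at least 2 in 9, and no window had more than 3. Another member lay within 25 places in 7 genes. No matching number was computed for other sets of genes, so clustering cannot be judged from these counts. The closest pair, ranked 57 and 64, stood at places 20159 and 20160. The gene ranked 57 had 1.55 and 1.49 TPM in apl replicates 1 and 3 and 6.09 TPM in apl replicate 2, against 9.35, 10.4 and 8.32 TPM in Z58. The gene ranked 64 was listed at 0 in apl replicates 1 and 3 and had 2.64 TPM in apl replicate 2, against 4.94, 6.41 and 4.20 TPM in Z58. Both held apl replicate 2 under the Z58 range. The genes ranked 1 and 33 stood 2 places apart, with apl replicate 2 under the Z58 range in both. Places in the table are not genome coordinates.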

How the data were processed

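Leaf transcriptomes were sequenced from 3 libraries labelled apl and 3 labelled Zheng58. The authors deposited 1 table of TPM values, with 1 column per library. The tools named in the submitters' processing notes are Trimmomatic 0.36, HISAT2, RSEM and DESeq2, with no role or order. The genome build is not given in the sources used here. Values are scaled within each library, so a large change in abundant transcripts moves every other value, and no counting error can be given.

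The selection rule was applied to the TPM values as deposited. The 20411 genes averaging 1 TPM or more were tested on log2(TPM + 1), which understates changes of low genes, with limma 3.58.1 in R 4.3.3 (genotype as the only term, mean-variance trend, two-sided, Benjamini-Hochberg over all tested genes). The 2 named genes are the member with the largest drop and the most abundant member. Lists of leaf genes could not be applied without names. The members and lists were chosen with earlier results of these data known. Replicate numbers are shared between the groups, but no label says that they mark a shared batch. No column of values was a copy of another: any pair had the same TPM in at most 1.14% of tested genes.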

Additional observations from a re-analysis of the deposited data

How the results depend on the processing

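The number of genes that met the rule (68) was 159 with 0.1 TPM added in place of 1, 29 with 5 TPM added, 188 at a limit of 2 and 11 at a limit of 4, and it ran from 71 to 190 when a library was left out of the rule (190 without apl replicate 2, 154 without apl replicate 1, 134 without apl replicate 3). The 190 genes chosen without apl replicate 2 numbered 405, 71, 407 and 50 under these same 4 settings, and 210 to 322 with a further library left out. Those with apl replicate 2 nearer to Z58 (107) numbered 215, 43, 263 and 21, and 112 to 218. After median-of-ratios rescaling, the counts given as 68, 190 and 107 were 94, 231 and 140. After quantile normalization they were 95, 244 and 148. The median difference of apl replicates 1 and 3 from Z58 (-2.05) was -2.34 with 0.1 TPM added, -1.54 with 5 TPM added and -2.23 after quantile normalization, and -2.14 to -1.98 with a library left out. Members with another within 10 or 100 places numbered 4 and 18. Over all tested genes, 152 were called lower in apl, 2450 with array weights and 36 to 2999 with a library left out (2999 without apl replicate 2, 66 and 85 without apl replicates 1 and 3, 36, 36 and 44 without Z58 replicates 1, 2 and 3). Of the 68 genes, 67 were called with array weights, and 0 to 68 with a library left out, 68 only without apl replicate 2. With a replicate block 11 genes were called, 0 of them among the 68. Same-numbered libraries did not deviate together (r across genes of -0.04, 0.05 and -0.02 for replicates 1, 2 and 3). The cause of these shifts was not tested. The unknown depth leaves the error of low TPM values unknown.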

Other observations

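The 4 genes set aside for a Z58 mean of 1000 TPM or more had passed the same fold limit, which fixed their split of libraries, and are given as values only. The most abundant had 5497 and 7579 TPM in apl replicates 1 and 3 and 32654 TPM in apl replicate 2, against 21156, 29175 and 21510 TPM in Z58. The next had 630 and 636 TPM in apl replicates 1 and 3 and 1814 TPM in apl replicate 2, against 2287, 2922 and 2542 TPM in Z58. The following gene had 588 and 661 TPM in apl replicates 1 and 3 and 2668 TPM in apl replicate 2, against 2365, 3509 and 1695 TPM in Z58. The last had 698 and 666 TPM in apl replicates 1 and 3 and 1933 TPM in apl replicate 2, against 1859, 2033 and 1956 TPM in Z58. In apl replicate 2 these genes stood at 136%, 70.2%, 106% and 99.2% of the Z58 mean, so the first exceeded and the second stayed under every Z58 library.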
